A study of Mus musculus with 10 samples.

Results

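The genes described here are 10 regulators of heritable gene silencing: the Polycomb genes Ezh1, Ezh2, Eed, Suz12, Jarid2, Cbx2 and Cbx7, and the DNA methyltransferase genes Dnmt1, Dnmt3a and Dnmt3b. They were taken by symbol from the platform annotation, with the single-symbol probe set of the highest mean kept for each gene. All 10 had such a probe set, among 19938 genes measured that way, and all 10 were among the 14953 genes tested. The study hybridised prostate RNA of 10 male TRAMP mice to single-colour arrays that cover whole transcripts, with 1 array for each mouse. The tissue came from 5 mice given nicotine, as its tartrate salt in tap water at 250 µg/ml from an age of 8 to 9 weeks, and from 5 mice given tap water alone. All mice of both groups carried the TRAMP transgene, in which the promoter of probasin, a gene that secretory cells of the prostate express, drives the T antigens of a tumour virus, so there was no prostate free of the oncogene. Values are the deposited log2 expression values, in which 1 unit is a doubling, and differences are nicotine minus water.

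Polycomb repressive complex 2 methylates histone H3 at a lysine that marks silent genes. Ezh2 and Ezh1 are its alternative catalytic subunits, Ezh2 the form of dividing cells and Ezh1 the form that persists in resting cells. Eed and Suz12 are core subunits that the enzyme needs, and Jarid2 is an accessory subunit that helps to bring the complex to DNA. Cbx2 and Cbx7 are alternative chromodomain subunits of Polycomb repressive complex 1, which reads that mark. Dnmt1 copies DNA methylation after replication, while Dnmt3a and Dnmt3b set new methylation. In prostate cancer EZH2 is a known marker of aggressive disease, and E2F factors, which the retinoblastoma proteins restrain until viral T antigen binds them, are known activators of EZH2, EED and DNMT1.

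Promoter windows are shown for the 3 members in which a form of the E2F consensus was found. The windows are those of RefSeq (GRCm38.p6), from 250 bases before to 50 bases after an annotated transcription start, and 9 of the 10 members had 1 or more, 14 windows in all. The motif was searched as TTTCCCGC, TTTCGCGC, TTTGCCGC and TTTGGCGC on both strands, and matches, which could overlap, are in capitals. Ezh2 (chr6:47594981-47595280, minus strand) held 1 match that began at base 4 after the start. Suz12 (chr11:79992856-79993155, plus strand) held 1 match that began at base -219 relative to the start. Dnmt1 had 3 annotated starts, of which the one furthest downstream (chr9:20952574-20952873, minus strand) held 2 matches, 1 on the reverse strand.
Ezh2: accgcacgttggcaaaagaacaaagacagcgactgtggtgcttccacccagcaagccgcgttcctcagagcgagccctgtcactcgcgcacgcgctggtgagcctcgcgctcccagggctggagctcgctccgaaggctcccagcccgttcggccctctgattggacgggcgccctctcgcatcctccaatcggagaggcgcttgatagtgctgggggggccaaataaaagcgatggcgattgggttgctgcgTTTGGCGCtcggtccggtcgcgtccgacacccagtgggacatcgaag
Suz12: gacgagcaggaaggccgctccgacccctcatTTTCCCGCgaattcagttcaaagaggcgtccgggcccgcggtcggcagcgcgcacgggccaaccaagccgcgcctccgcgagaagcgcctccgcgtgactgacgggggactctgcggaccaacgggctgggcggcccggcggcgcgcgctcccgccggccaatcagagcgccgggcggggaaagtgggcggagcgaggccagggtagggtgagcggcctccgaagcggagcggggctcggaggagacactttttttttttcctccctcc
Dnmt1: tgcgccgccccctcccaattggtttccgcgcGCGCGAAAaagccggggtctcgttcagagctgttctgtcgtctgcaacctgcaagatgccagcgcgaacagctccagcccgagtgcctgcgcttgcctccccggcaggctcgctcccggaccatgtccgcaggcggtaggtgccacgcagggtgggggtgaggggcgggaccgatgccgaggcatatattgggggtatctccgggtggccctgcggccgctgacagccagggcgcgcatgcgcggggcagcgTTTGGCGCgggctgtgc

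A match occurred in 4.25% of the 11831 tested genes that had a window and in 2.26% of all 32851 windows. Of 25 proliferation genes with a window, 5 held one. The windows of Ezh1, Eed, Jarid2, Cbx7, Dnmt3a and Dnmt3b held none of these letters, and no window for Cbx2 was used here. The window of the Dnmt1 start furthest upstream held 2 CpG sites and the other member windows held 12 to 47, where the median over all windows was 7.

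The arrays of nicotine mice 3 and 1 stood apart, with median correlations to the other arrays of 0.654 and 0.880, against 0.983 to 0.988 for each of the other 8. Neuroendocrine markers (13 of 14 measured) averaged 10.23 in nicotine mouse 3 and 9.41 in nicotine mouse 1, against 7.09 to 7.48 in nicotine mice 2, 4 and 5 and 6.97 to 7.59 in water mice. Prostate luminal markers (10 of 12 measured) averaged 7.57 in nicotine mouse 3, where the probasin gene Pbsn itself, named because its promoter drives the transgene, was at 5.08, below the level under which genes were not tested (6.55). They averaged 10.9 in nicotine mouse 1, and 11.59 to 11.86 in the other 8 mice. Skeletal muscle markers averaged 10.34 in nicotine mouse 1 and 7.34 to 7.72 in the other 9 mice. Proliferation markers (31 of 32 measured, none of them a member) averaged 11.08 in nicotine mouse 3, 10.24 in nicotine mouse 1 and 9.48 to 9.58 in the other nicotine mice, against 9.09 to 9.34 in water mice, so that the groups did not overlap. Fibroblast markers (7 of 7 measured) averaged 8.40 to 9.44 in nicotine mice, against 9.74 to 10.13 in water mice, and macrophage markers (7 of 7) averaged 7.83 to 8.44 in nicotine mice, against 8.48 to 9.25 in water mice, again without overlap. Differences of the members are given with and without nicotine mice 1 and 3, an alternative chosen because earlier results of these data had set them apart. In bulk tissue, a change in the share of a cell type cannot be told apart from a change of RNA per cell, and the part of these markers in the differences below was not tested.

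Of the catalytic subunits of Polycomb repressive complex 2, Ezh2 was at 10.99, 10.57, 11.61, 10.67 and 10.52 log2 units in nicotine mice 1 to 5, against 10.37, 10.60, 10.64, 10.58 and 10.56 in water mice 1 to 5. Nicotine mouse 3 was the highest of all 10 mice, nicotine mouse 1 came next, and the other 3 nicotine mice lay within or just above the range of the water mice. The mean was 10.87 ± 0.45 in nicotine mice and 10.55 ± 0.11 in water mice (SD, n = 5 each), a difference of 0.32 ± 0.19 (SE) that did not pass (limma, adjusted p = 0.458). Without nicotine mice 1 and 3 the difference was 0.04 ± 0.07 (SE). Its match for resting cells, Ezh1, ran the other way. Ezh1 was at 9.87, 10.19, 9.80, 10.24 and 10.12 in nicotine mice, against 10.36, 10.22, 10.22, 10.17 and 10.22 in water mice. The lowest values were again those of nicotine mice 3 and 1, and the difference was -0.19 ± 0.10 (SE; limma, adjusted p = 0.458), or -0.05 ± 0.06 without them.

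**Figure D1:**
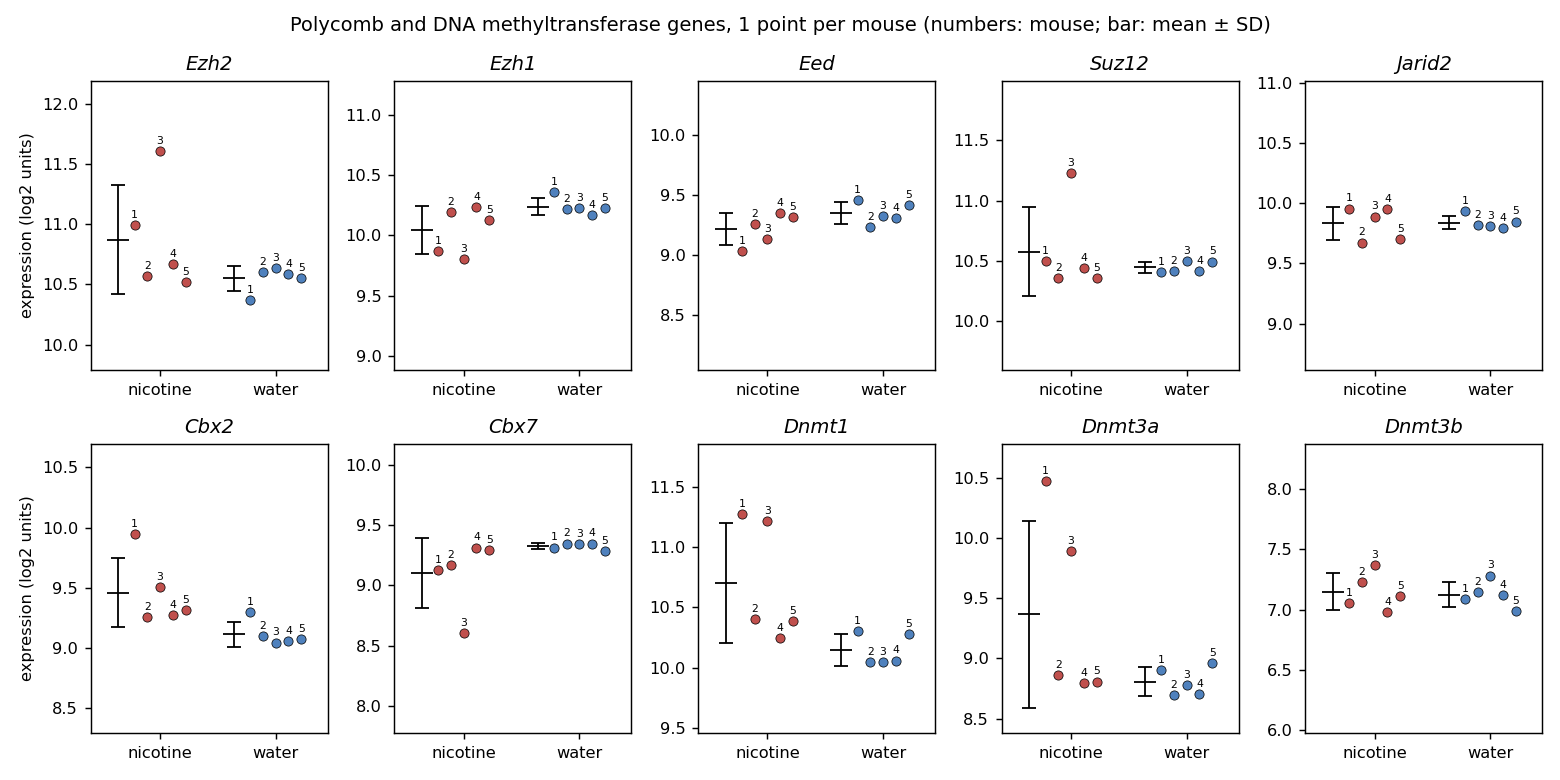
Log2 expression (y axis, the same span in every panel) of the 10 genes in nicotine mice, left, and water mice, right. Points are single mice with their number, and the bar is the mean ± SD (n = 5). For Ezh2, Cbx2, Dnmt1 and Dnmt3a, nicotine mice 1 and 3 lie above all other mice, and for Ezh1, Eed and Cbx7 they lie below. For Suz12, nicotine mouse 3 stands far above and nicotine mouse 1 is level with the highest water mouse.

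The core and accessory subunits did not follow Ezh2 as a block. Suz12 was at 11.23 in nicotine mouse 3 and between 10.35 and 10.50 in the other 9 mice, nicotine mouse 1 included. Its mean was 10.58 ± 0.37 in nicotine mice and 10.45 ± 0.05 in water mice (SD, n = 5 each), and the difference of 0.13 ± 0.16 (SE) turned to -0.06 ± 0.05 without nicotine mice 1 and 3. Eed was at 9.03, 9.26, 9.13, 9.35 and 9.32 in nicotine mice, against 9.46, 9.23, 9.32, 9.30 and 9.42 in water mice. Here nicotine mice 1 and 3 were the lowest of the 10, in the opposite direction to Ezh2, and the difference was -0.13 ± 0.08 (SE). A second probe set for Eed, not used because its level was lower (5.37 to 5.85), differed by 0.13 in the opposite direction. Jarid2 ran from 9.67 to 9.96 in nicotine mice and from 9.79 to 9.93 in water mice, with a difference of -0.01 ± 0.08 (SE). None of the 3 passed by limma, with adjusted p of 0.636 for Suz12, 0.461 for Eed and 0.962 for Jarid2.

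Among the chromodomain subunits of Polycomb repressive complex 1, Cbx2 was higher and Cbx7 lower in the nicotine group. Cbx2 was at 9.95, 9.26, 9.51, 9.27 and 9.32 in nicotine mice, against 9.30, 9.10, 9.04, 9.06 and 9.07 in water mice. All 5 nicotine mice lay above water mice 2 to 5, and the groups overlapped through water mouse 1 alone. The mean was 9.46 ± 0.29 in nicotine mice and 9.11 ± 0.10 in water mice (SD, n = 5 each), a fold of 1.27. The difference of 0.35 ± 0.13 (SE) had an unadjusted p of 0.0262 by limma and did not pass (adjusted p = 0.458), with 0.0238 by exact permutation. Leaving out nicotine mice 1 and 3 gave 0.17 ± 0.07 (SE), with an unadjusted p of 0.0270 and an adjusted p of 0.268 by limma. The exact permutation p was then 0.0893.

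Cbx7 was at 9.13, 9.16, 8.60, 9.31 and 9.29 in nicotine mice, against 9.31, 9.35, 9.34, 9.35 and 9.28 in water mice. It had the smallest spread of the members in water mice (SD 0.03, n = 5), and nicotine mouse 3 stood furthest below. The mean was 9.10 ± 0.29 in nicotine mice and 9.33 ± 0.03 in water mice (SD, n = 5 each). The difference of -0.23 ± 0.13 (SE) did not pass by limma (adjusted p = 0.458), with an exact permutation p of 0.0397. It was -0.07 ± 0.05 without nicotine mice 1 and 3.

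Of the DNA methyltransferases, the maintenance enzyme gene Dnmt1 was at 11.27, 10.40, 11.22, 10.25 and 10.39 in nicotine mice, against 10.30, 10.05, 10.05, 10.06 and 10.28 in water mice. Nicotine mice 1, 2, 3 and 5 lay above every water mouse, and nicotine mouse 4 lay between water mice 4 and 5. The mean was 10.7 ± 0.50 in nicotine mice and 10.15 ± 0.13 in water mice (SD, n = 5 each), a fold of 1.47. The difference of 0.56 ± 0.21 (SE) had an unadjusted p of 0.0263 and an adjusted p of 0.458 by limma, so it did not pass, with 0.0238 by exact permutation. Leaving out nicotine mice 1 and 3 gave 0.20 ± 0.08 (SE), with an unadjusted p of 0.0330 and an adjusted p of 0.289 by limma. The exact permutation p was then 0.0714.

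The de novo enzyme gene Dnmt3a had the widest range of the 10 genes, 1.78 log2 units. It was at 10.47, 8.86, 9.89, 8.80 and 8.81 in nicotine mice, against 8.91, 8.69, 8.78, 8.70 and 8.96 in water mice. Nicotine mouse 1 was 3.17-fold and nicotine mouse 3 was 2.12-fold above the water mean, and the other 3 nicotine mice lay inside the water range. The difference of 0.56 ± 0.32 (SE) was as large as that of Dnmt1 and likewise did not pass (limma, adjusted p = 0.458). It was 0.01 ± 0.07 without nicotine mice 1 and 3. Dnmt3b was the one methyltransferase gene with no such pattern, at 7.05, 7.23, 7.37, 6.98 and 7.11 in nicotine mice, against 7.09, 7.15, 7.28, 7.12 and 6.99 in water mice. Its difference was 0.02 ± 0.09 (SE; limma, adjusted p = 0.878).

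**Figure D2:**
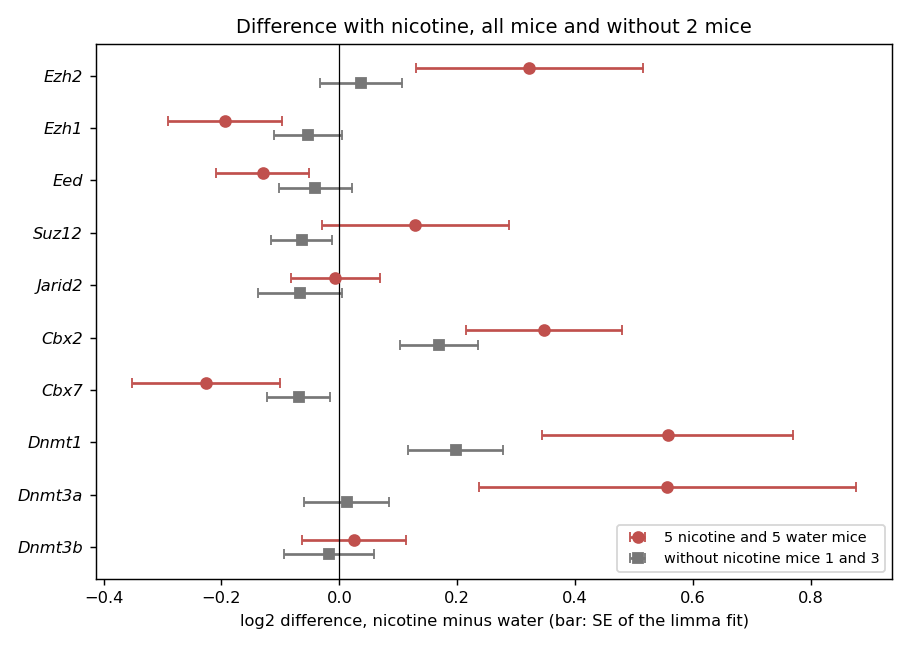
Log2 difference, nicotine minus water (x axis), for each gene with the SE of the limma fit, from all 10 mice (circles) and without nicotine mice 1 and 3 (squares). Dnmt1 (0.20 log2 units) and Cbx2 (0.17) keep the largest differences without these mice, while Dnmt3a (0.01) and Ezh2 (0.04) come close to 0.

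Over the 10 genes, 6 differences were positive and 4 negative, with a median of 0.08 log2 units, where the median of all tested genes was 0.00 and 50.7% were positive. None passed: by limma, 0 of 14953 tested genes (0%) had an adjusted p under 0.05. Of the members, 2 (Cbx2 and Dnmt1, both higher) had an unadjusted p under 0.05, where 10.1% of all tested genes did. This count was 0 without water mouse 3 or 4, 1 without water mouse 2 or 5 or nicotine mouse 1 or 3, and 3 without nicotine mouse 2 or 4. The count over all 14953 tested genes moved too. It was 784 and 1029 without water mouse 3 and 4, and 1094 and 1069 without water mouse 2 and 5. Without nicotine mouse 1 and 3 it was 981 and 1887, and without nicotine mouse 2 and 4 it was 1839 and 2490. No member had groups that did not overlap, where 4.90% of tested genes had. In the fit without nicotine mice 1 and 3, again 2 members, Cbx2 and Dnmt1, had an unadjusted p under 0.05, where 14.7% of tested genes did, and no member had groups without overlap, where 10.6% of genes had. With 10 members, each of these counts at an unadjusted p under 0.05 or without overlap rests on 3 genes or fewer. When arrays that deviate from the fit were given less weight, Cbx2 (0.22 log2 units, adjusted p = 0.0352) and Dnmt1 (0.28, adjusted p = 0.0444) passed by limma, as did 7.33% of all tested genes. The weights given to nicotine mice 3 and 1 were 0.0321 and 0.113, against 0.952 to 4.67 for the other arrays.

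All 10 members had a wider spread in nicotine mice than in water mice, with SDs of 0.13 to 0.77 in nicotine mice and 0.03 to 0.13 in water mice. The median SD over all tested genes was 0.26 in nicotine mice and 0.10 in water mice, so a wider spread was not particular to the members. In nicotine mouse 3, 6 members lay above all 5 water mice and 3 below them, in a mouse in which 38.0% of tested genes lay above and 42.2% below. In nicotine mouse 1 the counts were also 6 above and 3 below, in a mouse in which 34.1% of tested genes lay above and 38.6% below.

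The members did not move alike in nicotine mice 3 and 1. Dnmt1 was higher by nearly the same amount in both, 1.07 log2 units over the water mean in nicotine mouse 3 and 1.12 in nicotine mouse 1. Ezh2 and Suz12 were further up in nicotine mouse 3, by 1.06 and 0.78, than in nicotine mouse 1, by 0.44 and 0.05. Dnmt3a and Cbx2 were further up in nicotine mouse 1, by 1.66 and 0.83, than in nicotine mouse 3, by 1.08 and 0.39. Cbx7 lay at -0.72 relative to the water mean in nicotine mouse 3 and at -0.20 in nicotine mouse 1. With 1 array each, these 2 mice allow no test of a difference between them.

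**Figure D3:**
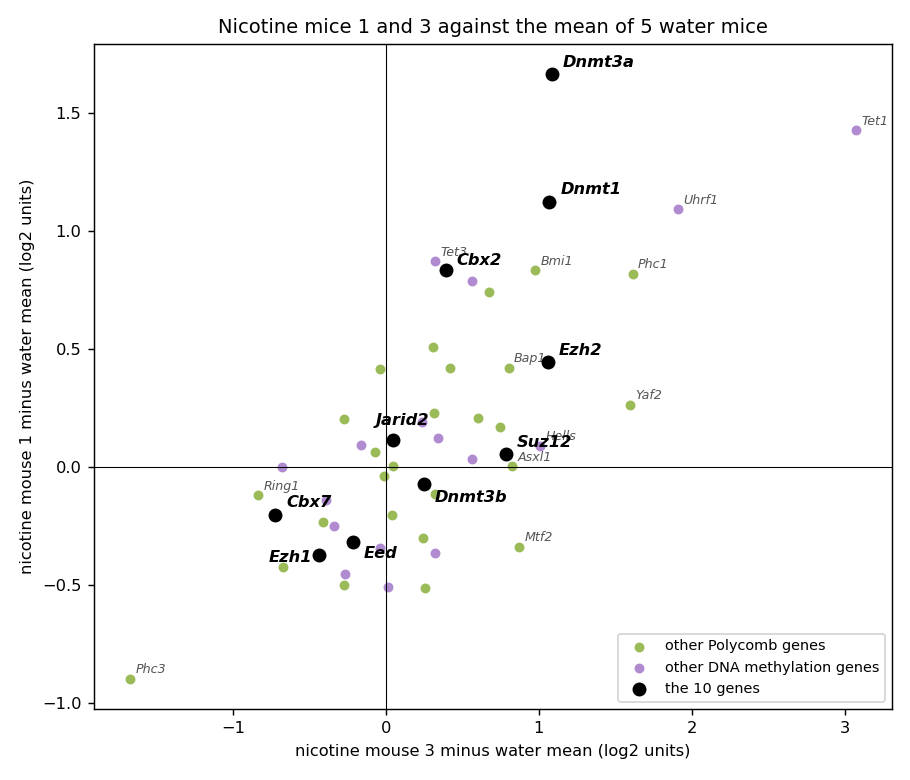
Log2 difference from the mean of the 5 water mice in nicotine mouse 3 (x axis) and nicotine mouse 1 (y axis), for the 10 genes (black), other Polycomb genes (green) and other DNA methylation genes (purple). Dnmt1 and Dnmt3a lie high in both mice, Suz12 is at 0.78 in mouse 3 and 0.05 in mouse 1, and Ezh1, Eed and Cbx7 lie low in both.

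Log2 ratios of 2 members within an array compare how unequally they changed, and their zero has no meaning. The ratio of Cbx2 to Cbx7 rose in the nicotine group. It was 0.82, 0.09, 0.90, -0.04 and 0.02 in nicotine mice, against -0.02, -0.25, -0.30, -0.29 and -0.21 in water mice, so that 4 of 5 nicotine mice lay above every water mouse. The difference of 0.57 log2 units, a fold of 1.49, passed the exact two-sided permutation test (p = 0.0159, adjusted p = 0.0317 over the 4 ratios examined). Without nicotine mice 1 and 3 it was 0.24 (exact p = 0.0536, adjusted p = 0.0952), and the call was also lost without water mouse 2, 3, 4 or 5 (adjusted p = 0.111 for each by the exact test). The ratio of Ezh2 to Ezh1 was 1.13, 0.37, 1.81, 0.44 and 0.40 in nicotine mice, against 0.01, 0.39, 0.41, 0.42 and 0.33 in water mice. Nicotine mice 1 and 3 stood above all others, and the difference of 0.52 did not pass (exact permutation p = 0.0952, adjusted p = 0.0952). It was 0.09 without them.

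Since Ezh2 and Dnmt1 are expressed with the cell cycle, each was also set against the mean of the proliferation markers of the same array. The ratio of Ezh2 to that mean fell in the nicotine group: it was 0.76, 1.02, 0.53, 1.19 and 0.94 in nicotine mice, against 1.22, 1.51, 1.53, 1.39 and 1.21 in water mice. The groups did not overlap, although nicotine mouse 4 was close to water mice 1 and 5. Ezh2 itself was not lower in nicotine mice: the proliferation mean, whose groups did not overlap either, was 9.98 in nicotine mice and 9.18 in water mice, so the lower ratio largely restates that difference. The difference of -0.48 passed (exact permutation p = 0.00794, the smallest that 252 arrangements can give, adjusted p = 0.0317). Since the proliferation mean alone separates the groups, this pass is no separate result for Ezh2. The same limit holds for the ratio of Dnmt1 below. How many other tested genes would give such a ratio was not tested. Without nicotine mice 1 and 3 it was -0.32 with no overlap (exact p = 0.0357, adjusted p = 0.0952), and leaving out water mouse 2, 3, 4 or 5 gave an adjusted p of 0.0635 by the exact test. For Dnmt1 the ratio was 1.04, 0.85, 0.14, 0.77 and 0.81 in nicotine mice, against 1.15, 0.96, 0.94, 0.86 and 0.94 in water mice, a difference of -0.25 that did not pass (exact permutation p = 0.0952, adjusted p = 0.0952). Nicotine mouse 3 was the lowest, at 0.14, against 0.77 to 1.04 in the other nicotine mice, and without it the difference was -0.11 (exact p = 0.198). Without nicotine mouse 1 the difference was -0.33 and passed (exact p = 0.00794, adjusted p = 0.0159). Without both mice it was -0.16, with no overlap as for Ezh2 (exact p = 0.0714, adjusted p = 0.0952).

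**Figure D4:**
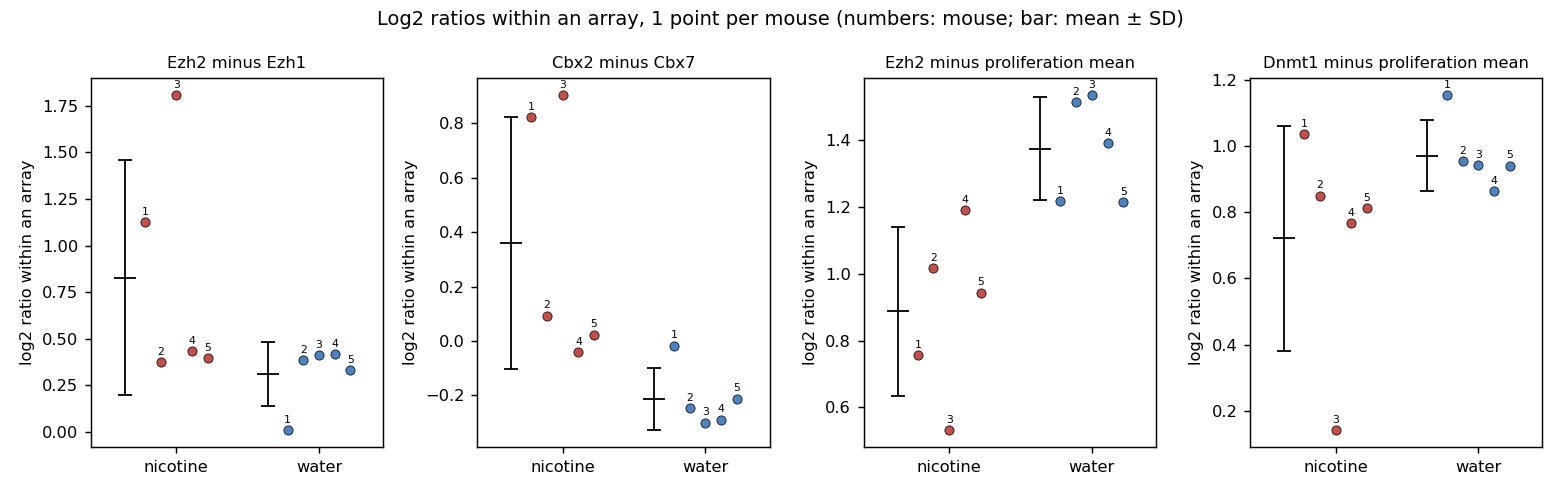
Log2 ratios within an array (y axes differ between panels) in nicotine mice, left, and water mice, right. Points are single mice with their number, and the bar is the mean ± SD (n = 5). The ratio of Ezh2 to the proliferation mean is at most 1.19 in nicotine mice and at least 1.21 in water mice. The proliferation mean alone also separates the groups.

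Of 26 other Polycomb genes tested, 16 differences were positive and 10 negative, with a median of 0.06, 1 higher and 1 lower at an unadjusted p under 0.05 and 0 past the threshold. Over all tested genes 50.7% were positive and 10.1% reached that p, a larger share than in this list, so the genes below are named by their rank in p and not as calls. The histone-binding subunit gene Rbbp7 was at 11.33 to 11.47 in nicotine mice 2, 4 and 5, 11.23 in nicotine mouse 3 and 11.00 in nicotine mouse 1, against 11.42 to 11.57 in water mice (-0.23 ± 0.09 SE, limma unadjusted p = 0.0286). The higher one was L3mbtl2 (0.34 ± 0.15 SE, limma unadjusted p = 0.0461), a subunit gene of a variant complex 1. Next by p came Phf19 (0.25 ± 0.11), an accessory subunit of complex 2, and Epop (0.18 ± 0.08), a further accessory subunit. Without nicotine mice 1 and 3 no gene of the list had an unadjusted p under 0.05, and 13 of 26 were positive. The most unequal between nicotine mice 3 and 1 and the rest, chosen after their values were seen, were Phc1 and Phc3, which encode alternative Polyhomeotic subunits. Phc1 was at 10.10 in nicotine mouse 3 and 9.30 in nicotine mouse 1, against 8.43 to 8.66 in the other 8 mice. Phc3 was at 9.09 in nicotine mouse 3 and 9.87 in nicotine mouse 1, against 10.61 to 10.91 in the other 8.

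Of 15 other DNA methylation genes tested, 8 differences were positive and 7 negative, with a median of 0.06, and 1 had an unadjusted p under 0.05, again a smaller share than the 10.1% over all tested genes. That gene was Uhrf1, whose product brings Dnmt1 to newly replicated DNA. Uhrf1 was at 9.56, 8.70, 10.38, 8.99 and 8.97 in nicotine mice, against 8.52, 8.30, 8.45, 8.33 and 8.75 in water mice. All nicotine mice but mouse 2 lay above every water mouse, as with Dnmt1, where nicotine mouse 4 was the exception. Its difference was 0.85 ± 0.28 (SE, limma, unadjusted p = 0.0141, adjusted p = 0.458), and 0.42 ± 0.11 without nicotine mice 1 and 3 (limma, unadjusted p = 0.0030). In that smaller fit 14.7% of all tested genes had an unadjusted p under 0.05 and 0 passed. Next by p with all mice came Dmap1 (0.13 ± 0.06 SE), a Dnmt1-associated protein gene, and Mbd3 (0.32 ± 0.14), a methyl-binding family gene. The methylcytosine dioxygenase gene Tet3 (0.31 ± 0.16) came after them. Tet1, of the same enzyme family and chosen after its values were seen, was at 11.18 in nicotine mouse 3 and 9.53 in nicotine mouse 1, against 7.93 to 8.19 in the other 8 mice.

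Of 15 developmental regulators tested, genes that Polycomb is known to silence in differentiated cells, 11 differences were positive, with a median of 0.06 and 0 at an unadjusted p under 0.05. Over all tested genes 50.7% were positive and 10.1% reached that p, so the genes below are again named by rank and not as calls. The neural factor gene Sox1 was at 10.70 in nicotine mouse 1 and 10.73 in nicotine mouse 3, against 8.19 to 8.61 in the other 8 mice. The paired-box gene Pax9 was at 11.32 and 11.84 in the same 2 mice, against 7.36 to 7.90 in the other 8. Hoxa11 (-0.33 ± 0.18 SE), a homeobox gene of the urogenital tract, was lowest in nicotine mouse 3, at 6.83. Cdkn2a, a classical Polycomb target that encodes cell cycle inhibitors, differed by 0.22 ± 0.12 (SE), with 8.81 to 9.20 in nicotine mice and 8.47 to 9.05 in water mice. Germline genes that promoter DNA methylation keeps silent in body tissues were low: 12 of 16 were below the level of testing. The 4 tested, Hormad1, Rpl10l, Brdt and Piwil2, had differences from -0.03 to 0.03, and none had an unadjusted p under 0.05.

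The genes whose pattern over the 10 mice was most like that of a member were found by the mean absolute difference of values centred on the water mean. For Dnmt3a they were Zbed3 (0.05 log2 units), Tubgcp3 (0.07), a gene of the microtubule nucleation complex, and Pcyox1l (0.08). For Ezh2 they were Serf1, Tex9 and Clip2 (0.05 each). For Dnmt1 they were Gpsm2 (0.05), a spindle orientation gene, 4930579G24Rik (0.06) and Dot1l (0.06), a histone methyltransferase gene. Each of these 9 genes was higher than the water mean in both nicotine mice 1 and 3, by 0.32 to 1.59 in mouse 1 and by 0.99 to 1.31 in mouse 3. That follows from how they were chosen, since the 3 members were themselves higher in these mice, and is no separate result.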

How the data were processed

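Prostate RNA of 5 nicotine and 5 water mice, 1 array each, was analysed; the labels number the mice. The authors deposited log2 values for 35556 probe sets, ranging from 3.59 to 14.1 with array medians of 7.50 to 7.57. Scale and the lack of gene centring were read from these values, and no source used here names the authors' background correction, summarisation or normalization. No scan dates were used, so batches could not be checked. Arrays have no read depth, and 5 per group limits the precision.

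Gene names follow the platform annotation and may be outdated: 21789 probe sets had 1 symbol, 1621 several and 12146 none, and 21698 matched RefSeq by Entrez identifier. For each gene the single-symbol probe set with the highest mean was kept, and the lowest 25% of genes by mean, below 6.55, were left out. Of the members only Eed had 2 probe sets. limma 3.58.1 in R 4.3.3 (lmFit, eBayes, two-sided, Benjamini-Hochberg over 14953 genes, threshold 0.05) was fitted to all 10 arrays. It was also run on simulated data with independent mice and the same SD in both groups. The real median SD was 0.26 in nicotine and 0.10 in water mice, so that run does not cover the unequal spread. Ratios and single members were tested by exact permutation of the mice, ratios with adjustment over 4.

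The members and lists were chosen with earlier results of these data known. Besides the members, the text names up to 4 genes with the smallest p from each of the 4 Polycomb and DNA methylation lists and the 3 genes most alike to each of the 3 members with the widest range; Phc1, Phc3, Tet1 and Pbsn lie outside this rule. Of the other marker lists, endothelial markers averaged 7.85 ± 0.45 in nicotine and 7.82 ± 0.12 in water mice, T cell markers 6.77 ± 0.10 in nicotine and 6.92 ± 0.16 in water mice, smooth muscle markers 10.31 ± 1.26 in nicotine and 10.92 ± 0.11 in water mice, and seminal vesicle markers 8.36 ± 2.54 in nicotine and 10.53 ± 3.02 in water mice (SD, n = 5 each). Seminal vesicle markers were not balanced between the groups. They averaged 12.52 in nicotine mouse 5 and 12.06 to 13.15 in water mice 3, 4 and 5. In nicotine mice 1 to 4 they averaged 5.92 to 8.54, and in water mice 1 and 2 they averaged 7.21 and 7.31. Some listed genes are not analysed here.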

Additional observations from a re-analysis of the deposited data

Results flagged for a closer look

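Groups of 5 mice were examined for 10 genes and 4 ratios, nicotine and water. Of these 28 groups, 4 held a mouse whose gap to its nearest neighbour took most of the range. Chance gives about 1 in 20 such groups where groups are independent. These groups share the same arrays, and all 4 cases came from nicotine mouse 3 or water mouse 1, so the rates cannot be compared. Suz12 in nicotine mouse 3 was at 11.23, against 10.35 to 10.50 in the other nicotine mice. Cbx7 in nicotine mouse 3 was at 8.60, against 9.13 to 9.31 in the other nicotine mice. Cbx2 in water mouse 1 was at 9.30, against 9.04 to 9.10 in the other water mice. The ratio of Ezh2 to Ezh1 in water mouse 1 was 0.0096, against 0.33 to 0.42 in the other water mice; this mouse had the lowest Ezh2 and the highest Ezh1 of the water group.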

How the results depend on the processing

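No setting brought a member past the threshold except array weights, under which 1096 genes passed, Cbx2 and Dnmt1 among them; 0 genes passed under every other setting run. Ezh1, Cbx2, Cbx7, Dnmt1 and Dnmt3a kept their direction in all 21 settings. Ezh2 turned to -0.0184 with array weights, and Eed to 0.0017 with the mean of its probe sets. Suz12 turned to -0.0852 with array weights, -0.11 with the first principal component as covariate and -0.0642 without nicotine mice 1 and 3, and ran from -0.0347 to 0.18 with single mice left out. Jarid2 turned to 0.0258 with quantile normalization and ran from -0.0374 to 0.0335 with single mice left out. Dnmt3b turned to -0.0572 with array weights, -0.0465 with the principal component and -0.0176 without nicotine mice 1 and 3, and ran from -0.0308 to 0.0664. The cause was not tested.

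The 2 members at an unadjusted p under 0.05 became 0 with the principal component or the seminal vesicle mean as covariate, and 0 to 3 with single mice left out. Over all genes that count was 1514, against 3741 with array weights, 599 with the seminal vesicle covariate and 784 to 2490 with single mice left out. With the mouse number as a replicate block it was 1005, with 0 genes past the threshold and the same count of 2 members. Deviations of same-numbered mice correlated at -0.13 to 0.16 and no mouse matched its own number best, so the numbers were not taken as pairs. Without a filter on level, 3 other Polycomb genes, 2 DNA methylation genes and 2 germline genes had an unadjusted p under 0.05, against 2, 1 and 0. Over all genes 1842 of 19938 did in that fit. Both germline genes were lower in nicotine mice and below the level of testing.

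Of the ratios, Cbx2 to Cbx7 (0.24) and Ezh2 to the proliferation mean (-0.32) lost their call without nicotine mice 1 and 3, where 56 arrangements limit the test. With single mice left out they ran from 0.44 to 0.67 and from -0.56 to -0.40. Ezh2 to Ezh1 ran from 0.27 to 0.63, passing without nicotine mouse 2 (adjusted p = 0.0423 by the exact test), and Dnmt1 to the proliferation mean ran from -0.33 to -0.11.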
